A study of Arabidopsis thaliana with 8 samples.

Results

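The genes described here are the cytokinin response factor genes CRF1 (AT4G11140), CRF2 (AT4G23750), CRF3 (AT5G53290), CRF4 (AT4G27950), CRF5 (AT2G46310) and CRF6 (AT3G61630) of Arabidopsis thaliana. They are 6 of the 27444 protein-coding genes annotated on the 5 nuclear chromosomes. They were chosen by name, with earlier results of these data known. For each gene, every ChIP-seq peak that touched the window from 2 kb upstream of the gene to 1 kb downstream of it was taken from the peak lists of GNC and CGA1. ChIP-seq maps where a protein sits on chromatin by sequencing the DNA that comes down with an antibody. A peak is an interval in which the immunoprecipitated DNA (IP) was enriched over the sonicated chromatin before immunoprecipitation (INPUT).

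The libraries came from whole rosette leaves of 3-week-old plants of ecotype Col-0 grown in long days. The myc-GNC line overexpressed GNC and the myc-CGA1 line overexpressed CGA1, each with a myc tag. Each line had 2 IP libraries made with an anti-myc antibody and 2 INPUT libraries, 8 libraries in all, and 1 peak list was given for each IP library. The promoter that drives the transgenes and the number of independent transformants were not given in the sources used here. No anti-myc immunoprecipitation from plants without a tagged protein was analysed here, so the values below have no background measured in such plants. All sites are those of tagged, overexpressed proteins.

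Cytokinin is perceived by histidine kinase receptors, and the signal is passed through phosphotransfer proteins to response regulators in the nucleus. The CRF genes encode transcription factors of the AP2/ERF family that form a side branch of this pathway, and CRF proteins are known to act in leaf and embryo development and in senescence. GNC and CGA1 are closely related GATA factors with a single zinc finger. CGA1 takes its name from its induction by cytokinin, and both factors promote greening and chloroplast development.

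Sequences from 4 of the peaks at the CRF genes are given first, and later paragraphs describe these whole peaks and others. Each stretch is the 300 bases of the peak with the most GATA motifs, read 5′ to 3′ on the strand of the gene from the RefSeq TAIR10.1 assembly. Capitals mark GATA or GATC on either strand, so that GATA on the opposite strand appears as TATC. The stretch of the GNC peak at CRF2 is chr4:12375786-12376085, plus strand, −336 to −37 bp from the transcription start site (TSS). The stretch of the CGA1 peak nearest to CRF2 is chr4:12375280-12375579, plus strand, −842 to −543 bp from the TSS. The stretch of the CGA1 peak at CRF5 is chr2:19009881-19010180, plus strand, −1581 to −1282 bp from the TSS. The stretch of the GNC peak at CRF3 is chr5:21618660-21618959, minus strand, 322 to 621 bp downstream of the TSS and within the coding region.
CRF2 GNC peak: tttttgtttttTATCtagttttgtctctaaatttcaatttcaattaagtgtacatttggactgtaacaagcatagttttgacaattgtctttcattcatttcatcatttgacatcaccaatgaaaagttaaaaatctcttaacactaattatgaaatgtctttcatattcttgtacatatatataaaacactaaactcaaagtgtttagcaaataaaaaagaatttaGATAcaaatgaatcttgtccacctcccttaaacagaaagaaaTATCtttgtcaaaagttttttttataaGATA
CRF2 CGA1 peak: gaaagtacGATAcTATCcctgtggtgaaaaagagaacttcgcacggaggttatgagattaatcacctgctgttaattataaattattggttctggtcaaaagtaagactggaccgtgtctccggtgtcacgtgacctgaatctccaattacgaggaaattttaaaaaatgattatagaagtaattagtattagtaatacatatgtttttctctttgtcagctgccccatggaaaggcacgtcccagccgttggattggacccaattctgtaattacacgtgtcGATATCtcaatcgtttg
CRF5 CGA1 peak: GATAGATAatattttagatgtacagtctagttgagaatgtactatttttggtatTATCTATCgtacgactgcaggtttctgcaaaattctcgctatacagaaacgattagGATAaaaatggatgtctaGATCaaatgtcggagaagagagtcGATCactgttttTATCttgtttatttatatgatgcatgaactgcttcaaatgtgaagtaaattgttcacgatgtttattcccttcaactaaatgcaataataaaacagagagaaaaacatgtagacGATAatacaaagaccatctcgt
CRF3 GNC peak: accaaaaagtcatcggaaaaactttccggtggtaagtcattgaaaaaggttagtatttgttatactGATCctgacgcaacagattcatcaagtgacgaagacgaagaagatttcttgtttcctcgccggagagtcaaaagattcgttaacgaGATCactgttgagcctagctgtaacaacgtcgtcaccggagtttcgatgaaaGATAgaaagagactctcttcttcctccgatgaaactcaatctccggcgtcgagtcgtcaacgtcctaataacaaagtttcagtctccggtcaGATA

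The 4 stretches differed in their GATA content. The CRF5 stretch held 7 GATA motifs and opened with the pair GATAGATA, followed by the pair TATCTATC. The CRF2 stretches held 4 GATA motifs each and no GATC, though the whole GNC peak at CRF2 held 1 GATC. In the CRF2 CGA1 stretch, motifs of both strands overlapped in the sequence GATATC. The CRF3 stretch held 2 GATA and 2 GATC motifs, all within coding sequence.

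CRF2 was the gene with peaks of both factors. A GNC peak lay over its TSS in either GNC list, and 2 CGA1 peaks lay further upstream in each CGA1 list. CRF5 had a CGA1 peak in both lists and no GNC peak, CRF3 had a GNC peak in 1 of 2 lists and no CGA1 peak, and CRF1, CRF4 and CRF6 had no peak of either factor in their windows. Counted over the genes, 2 of 6 had a peak in GNC replicate 1, beside 27.0% of all protein-coding genes, and 1 of 6 had a peak in GNC replicate 2, beside 26.9%. For CGA1, 2 of 6 had a peak in replicate 1, beside 12.7% of all protein-coding genes, and 2 of 6 in replicate 2, beside 12.3%. A peak in both GNC lists was found at 1 of 6 CRF genes (all protein-coding genes, 22.9%), and 2 of 6 had a peak in both CGA1 lists (all protein-coding genes, 9.94%). CRF2 alone among the 6 had peaks in all 4 lists, a pattern shown by 706 protein-coding genes (2.57%). With 6 genes, 1 gene more or less is 16.7% of the set, and no test was made of these counts.

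**Figure D1:**
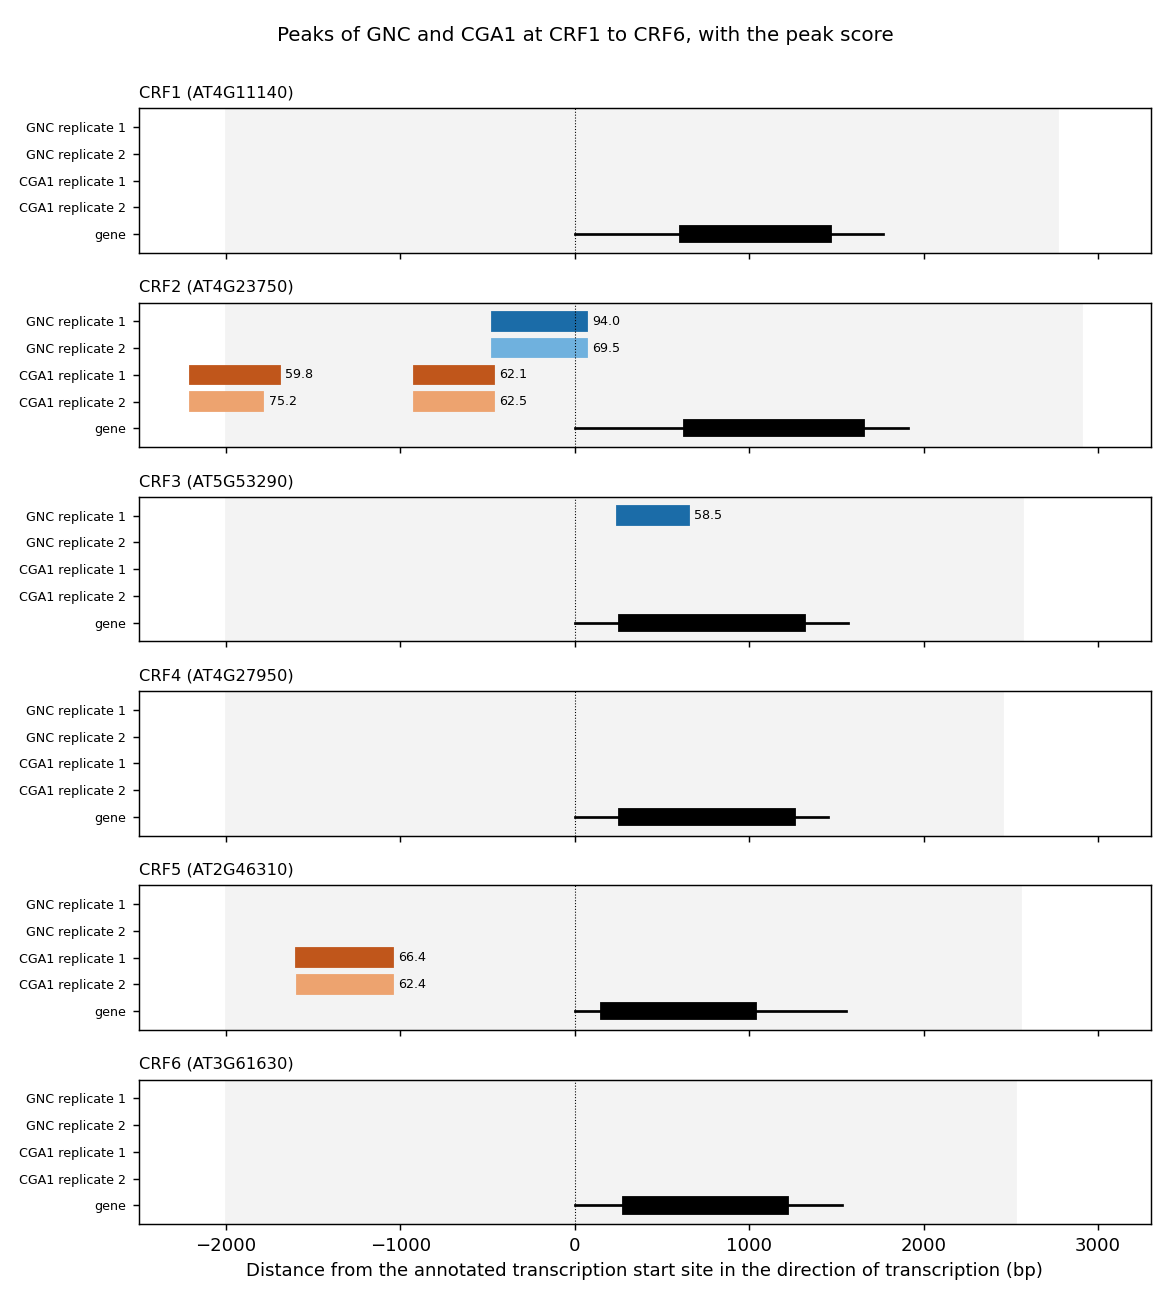
Peaks of both GNC lists (blue) and both CGA1 lists (orange) at CRF1 to CRF6, drawn to scale by distance from the annotated gene start (taken as the TSS) in bp, with the peak score beside each peak, the searched window in grey, the gene as a line and its coding region as a black box. Peaks appear at CRF2 in all 4 lists, at CRF5 in both CGA1 lists and at CRF3 in GNC replicate 1, and the panels of CRF1, CRF4 and CRF6 hold none.

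The score of a peak is the value of the authors' peak caller, 10 times the negative log10 of the p-value of IP against INPUT, with a minimum of 50. It was read only against the other peaks of the same list, because it depends on sequencing depth. The GNC lists held 5745 and 5722 peaks with median scores of 65.3 and 65.6, and the CGA1 lists held 2456 and 2399 peaks with median scores of 62.9 and 62.5. Overlapping peaks of the GNC replicates had identical edges in 4734 of 4734 cases, and in CGA1 the edges differed by 0 or 4 bp in 92.3% of cases. The lists of a line were therefore counted as 1 sample, so an appearance in both lists is not independent support and no spread between replicates is given.

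At CRF2 (chr4:12376122-12378032, plus strand), the GNC peak spanned chr4:12375648-12376190 in both lists, a width of 543 bp. It reached from 474 bp upstream of the TSS into the first 69 bp of the gene, all of them before the coding region, and its centre lay 203 bp upstream. CRF2 has a second annotated transcript that starts at 12376194, outside the peak. The score was 94.04 in replicate 1 and 69.45 in replicate 2. These scores were higher than those of most peaks in replicate 1 (percentile 86.1, rank 800 of 5745) and near the middle of the list in replicate 2 (percentile 57.5, rank 2431 of 5722). No other annotated gene was touched by this peak, which stood 2194 bp from the nearest gene on the other side, the lncRNA gene AT4G07180.

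The CGA1 peak nearest to CRF2 spanned chr4:12375198-12375660 in replicate 1 and ended 4 bp earlier in replicate 2. It lay wholly upstream of the gene, with its centre 693 and 695 bp from the TSS. Its scores were 62.11 and 62.5, close to the middle of each list (rank 1283 of 2456 and rank 1199 of 2399). The farther CGA1 peak spanned chr4:12373916-12374432 in replicate 1, with a score of 59.77 (percentile 40.4). In replicate 2 it ended at 12374337 and had a score of 75.21 (percentile 74.6). The order of both CGA1 peaks by score thus differed between the lists. The farther peak lay on the 2 kb edge of the window, with 311 of 517 bp inside it in replicate 1 and 216 of 422 bp in replicate 2. It was nearer to AT4G07180, at a gap of 462 bp, than to CRF2. Among protein-coding genes, 156 (0.568%) had 2 or more CGA1 peaks in both lists, and at 52 of them (0.189% of all) both GNC lists held a peak as well, CRF2 among them.

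**Figure D2:**
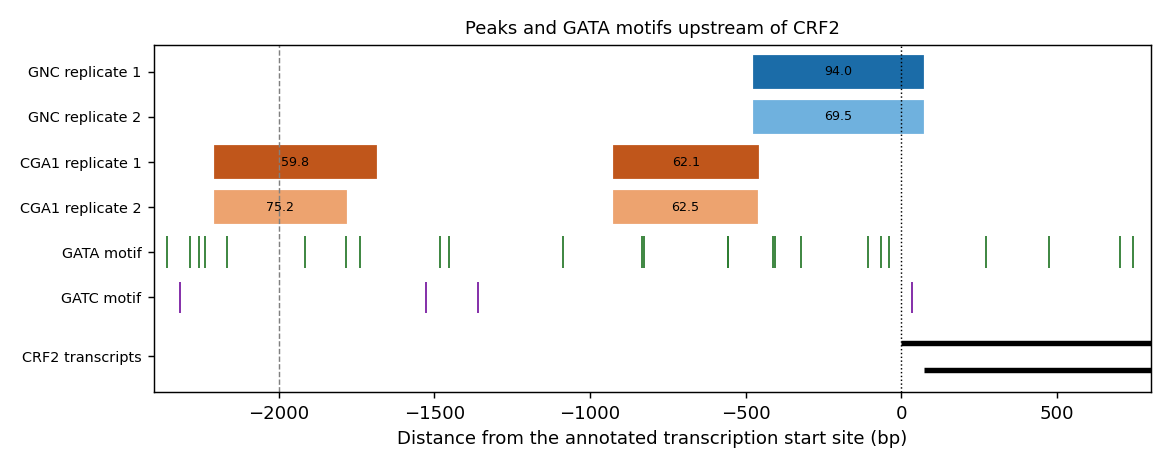
The region upstream of CRF2 by distance from the annotated TSS in bp, with GNC peaks (blue) and CGA1 peaks (orange) of both replicates and their scores, GATA and GATC motifs on either strand as ticks, both annotated transcripts as black bars and the 2 kb limit as a dashed line. The GNC peak covers the TSS, the nearer CGA1 peak ends where the GNC peak begins, and the farther CGA1 peak crosses the 2 kb limit.

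The GNC and CGA1 peaks at CRF2 were neighbours and shared only their edges. The overlap with the nearer CGA1 peak was 13 bp in replicate 1 and 9 bp in replicate 2, and the centres were 490 and 492 bp apart. The 13 shared bases, chr4:12375648-12375660, plus strand, contained neither GATA nor GATC.
CRF2 shared bases: gtcaaaaattaag
The gap between the GNC peak and the farther CGA1 peak was 1215 bp in replicate 1 and 1310 bp in replicate 2. Over the whole lists, 144 of 2456 CGA1 peaks in replicate 1 (5.86%) and 143 of 2399 in replicate 2 (5.96%) overlapped a GNC peak, with a median overlap of 206 and 217 bp. Only 3 of these overlaps in each replicate were 13 bp or shorter. Among the 706 genes with peaks in all 4 lists, GNC and CGA1 peaks overlapped in both replicates at 135 (19.1%), of which CRF2 was 1. Because the lists hold no summit positions, the distance between the points of highest enrichment was not measured.

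At CRF5 (chr2:19011462-19013018, plus strand), the CGA1 peak spanned chr2:19009867-19010420 in replicate 1 and began 4 bp later in replicate 2. It was 554 and 550 bp wide, and its nearer edge was 1042 bp upstream of the TSS. The scores were 66.39 and 62.37, near the middle of each list (percentiles 57.8 and 49.6). The peak was intergenic, 215 bp in replicate 1 and 219 bp in replicate 2 from AT2G46300, which encodes a late embryogenesis abundant hydroxyproline-rich glycoprotein family member, and 746 bp from AT2G46308, which encodes an uncharacterized protein. The windows of AT2G46290, AT2G46300 and AT2G46308 also contained it, and the TSS of AT2G46308 was nearer to its centre (1212 bp in replicate 1) than that of CRF5. The lists do not show to which of these genes, if any, the site belongs. GNC had no peak in the CRF5 window, and its nearest peak began 2593 bp downstream of the gene, over AT2G46320, with scores of 73.26 and 80.24.

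At CRF3 (chr5:21617714-21619281, minus strand), a GNC peak was listed only in replicate 1. It spanned chr5:21618629-21619037, was 409 bp wide and lay inside the gene, with 397 bp in the coding region and its centre 448 bp downstream of the TSS. Its score of 58.49 was in the lower part of the list (percentile 32.3, rank 3893 of 5745). A GNC peak in replicate 1 alone was found in the windows of 1109 protein-coding genes (4.04%). The 1010 GNC peaks of replicate 1 that overlapped none in replicate 2 had a median score of 54.7, against 65.3 for all peaks of replicate 1, and 72.5% of them scored below the CRF3 peak. In replicate 2 the nearest GNC peak was 14310 bp away, over UBC10, a ubiquitin-conjugating enzyme gene. With a minimum score of 50 and no read counts in the lists, enrichment below the threshold in replicate 2 cannot be told apart from none.

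**Figure D3:**
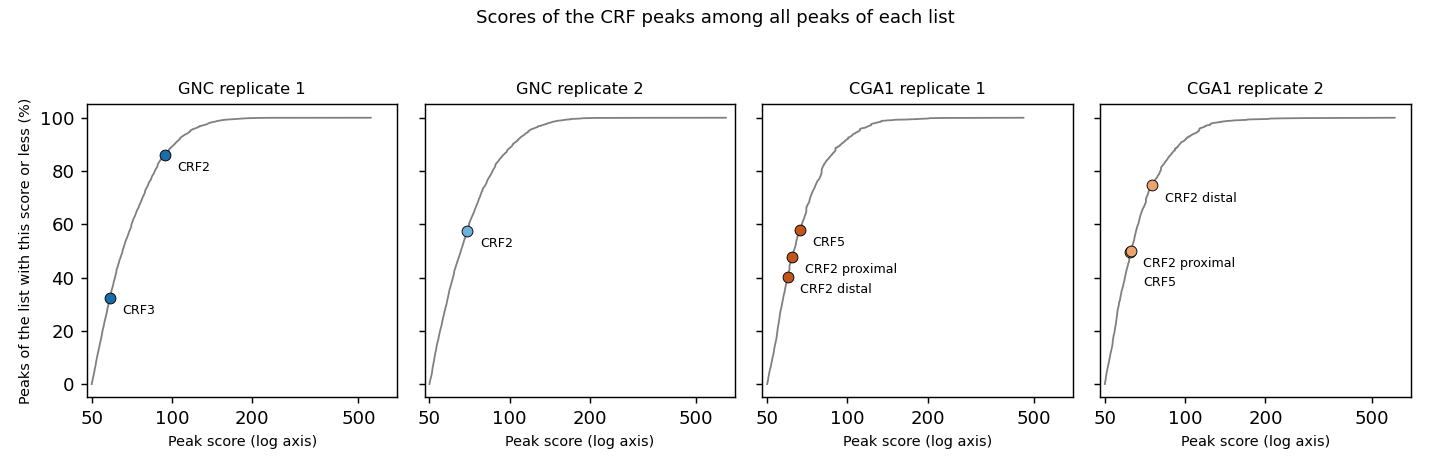
Scores of the peaks at CRF2, CRF3 and CRF5 (points) on the cumulative distribution of all peak scores (grey line), 1 panel for each list, with the nearer CGA1 peak at CRF2 as proximal and the farther as distal; the horizontal axis is the peak score on a log axis and the vertical axis the percent of peaks with that score or less. The points lie between the percentiles 32.3 and 86.1, and none reaches a score of 100.

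CRF1, CRF4 and CRF6 had no peak within 2 kb upstream or 1 kb downstream in any list, as did 16269 of all protein-coding genes (59.3%). At CRF1 (chr4:6794630-6796398, minus strand), the nearest GNC peak was 13182 bp downstream in both lists, over RDR2, an RNA-dependent RNA polymerase gene of the small RNA pathways. That peak had scores of 159.17 and 168.69, above those of the GNC peaks in the CRF windows in the same lists. The nearest CGA1 peak to CRF1 was 13875 bp upstream, with scores of 52.0 and 58.65. At CRF4 (chr4:13909542-13910995, minus strand), the nearest GNC peak was 8339 bp away in replicate 1, over PYL10, a gene of the abscisic acid receptor family, and 23638 bp away in replicate 2. The nearest CGA1 peak to CRF4 was 15928 bp away in replicate 1 and 67049 bp away in replicate 2. At CRF6 (chr3:22804998-22806527, plus strand), the nearest GNC peak was 4538 bp away in replicate 1, between AGP20 and the gamma-tubulin gene TUBG1, and 9960 bp away in replicate 2. The nearest CGA1 peak to CRF6 was 23918 bp away in replicate 1 and 78705 bp away in replicate 2. At CRF4 and CRF6 the nearest peaks of the replicates were thus different intervals for both factors, whereas at CRF1 they were the same.

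Over all protein-coding genes, the median gap to the nearest peak was 5091 and 5181 bp for GNC and 13832.5 and 14217 bp for CGA1, with a gap of 0 for a peak over the gene. CRF1 was farther from a GNC peak than 78.2% and 78.0% of protein-coding genes, and about as far from a CGA1 peak as the median gene. CRF6 was farther from a CGA1 peak than 68.7% of genes in replicate 1 and 96.1% in replicate 2, and CRF4 than 54.8% in replicate 1 and 94.6% in replicate 2. CRF5 stood nearer to a CGA1 peak than most genes, with 10.8% and 10.5% of genes nearer. That peak is the one already counted in its window, so this is not a separate result. Within 50 kb, with the peaks of its own window counted, CRF2 had 10 and 9 GNC peaks and 3 and 5 CGA1 peaks. Of these CGA1 peaks, 2 in each list were those of its own window. The median gene had 5 GNC peaks (quartiles 4 and 7) and 2 CGA1 peaks (quartiles 1 and 3) in each list. CRF5 had 6 and 9 GNC peaks and 3 CGA1 peaks in each list. CRF3, CRF4 and CRF6 had 4 to 6 GNC peaks and 0 to 3 CGA1 peaks. CRF1 had 1 and 2 GNC peaks in the same span and 1 CGA1 peak in each list.

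**Figure D4:**
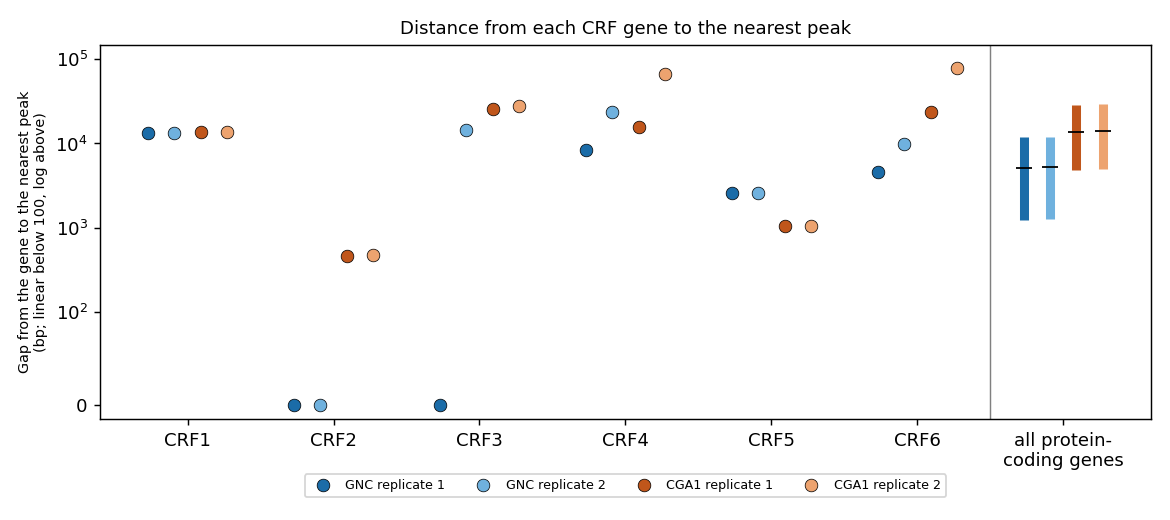
Gap in bp from each CRF gene to the nearest peak of each list (points; 0 is a peak over the gene, and the axis is linear below 100 and logarithmic above), with the median (black line) and the quartile range (bar) over all protein-coding genes at the right. CRF2 lies at 0 for GNC and at 462 and 466 bp for CGA1, and the gaps of the replicates are far apart for CRF3 in GNC and for CRF4 and CRF6 in CGA1.

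Window length and sequence uniqueness were compared between genes with and without peaks. The windows of the 6 genes were 4454 to 4911 bp long, and the median over all protein-coding genes was 5078 bp. CRF2 had the longest window (percentile 44.4 of all genes) and CRF4 the shortest (percentile 28.9). The authors removed reads that mapped to several locations, so that repeated sequence could give no peak. Every 50-base word in the 6 windows, 4405 to 4862 words each, occurred once in the genome, so exact repeats of that length were absent from the genes with and without peaks. Words that match elsewhere with mismatches were not searched. How many reads the authors removed from these windows was therefore not tested. The encoded proteins formed pairs, with 53.4% identity between CRF1 and CRF2, 54.8% between CRF3 and CRF4, and 50.8% between CRF5 and CRF6. All other pairs had 32.9% to 37.1% identity. CRF1, CRF4 and CRF6, which had no peak, were the nearest relatives of CRF2, CRF3 and CRF5. For the pair of CRF3 and CRF4 this difference rested on the single peak of GNC replicate 1, and with peaks of both replicates only, neither gene had one. In the promoter window of the study, from 1 kb upstream to 100 bp downstream with the peak centre inside, CRF2 alone had a peak. Of all protein-coding genes, 5.35% (GNC) and 2.25% (CGA1) had a peak there in both lists.

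GATA motifs were counted on both strands in each whole peak and set beside promoters of the same length, taken directly upstream of every protein-coding gene. The CRF5 CGA1 peak held 11 GATA motifs in replicate 1, where promoters of that length held 4.96 on average, and 2.26% of promoters had as many or more. Windows of that length at all CGA1 replicate 1 peaks averaged 5.03, and 2.24% of them had as many or more. The GNC peak at CRF2 held 6, where promoters averaged 4.86, and 35.9% of promoters had as many or more. The nearer CGA1 peak at CRF2 held 4, where promoters averaged 4.13. The farther one held 4 in replicate 1, where promoters averaged 4.62, and 2 in the shorter interval of replicate 2. The CRF3 GNC peak held 2, where promoters averaged 3.64 and windows of that length at all GNC replicate 1 peaks averaged 3.61. This peak lay almost wholly in coding sequence, so promoters are an unlike reference for its motif counts. The CRF5 peak and the farther CGA1 peak at CRF2 lay farther upstream than these promoters reach. At least 1 GATA was present in 96.4% to 98.8% of promoters of these lengths.

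The GATA counts upstream of the 6 genes overlapped between those with and without a peak in their windows. Only CRF2 had a peak within the 1 kb counted here. In the 1 kb upstream of the gene start, GATA occurred 15 times at CRF4, which had no peak, 10 times at both CRF2 and CRF3, 9 times at both CRF5 and CRF6, and 6 times at CRF1, where the mean of all protein-coding genes was 8.98. GATC was not found in the 1 kb upstream of CRF1, CRF2 or CRF4 and occurred 5 times at CRF5, where the mean was 3.06. The presence of a motif is a match of letters and does not show a bound site.

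The E-box CANNTG, the core of sites of bHLH factors, was counted in the same way. The nearer CGA1 peak at CRF2 held 5 CANNTG motifs, where promoters of its length averaged 1.56 and 77.3% had at least 1, and 2.85% of promoters had as many or more. The GNC peak at CRF2 also held 5, where promoters averaged 1.85 and 82.8% had at least 1, and 5.02% had as many or more. Among windows of those lengths at all replicate 1 peaks of the same factor, 4.72% (CGA1) and 7.38% (GNC) had as many or more. The other peaks held fewer. The CRF5 peak held 3, where 29.8% of promoters had as many or more, the farther CGA1 peak at CRF2 held 2 in replicate 1 (50.9%) and 1 in replicate 2 (74.2%), and the CRF3 peak held 1 (73.1%). In the 1 kb upstream of CRF2 the motif occurred 11 times, against a mean of 3.56, and the other 5 CRF genes had 3 to 6. In the nearer CGA1 peak, 2 of the 5 had the letters CACGTG, the G-box, which begin 715 and 567 bp upstream of the TSS and can be read in the CRF2 CGA1 sequence above. None of the 5 in the GNC peak had these letters. The G-box was looked at after its presence had been seen. GGNCCC, the core of sites of TCP factors, occurred once in the nearer CGA1 peak at CRF2 and is held by 11.2% of promoters of that length, and it was not found in the other peaks at the CRF genes. GCCGCC, the GCC box of ethylene response factors, was not found in any of these peaks, and 3.26% to 4.56% of promoters of these lengths hold it. AGATT, a core of sites of type-B response regulators, occurred 5 times in the farther CGA1 peak at CRF2 in replicate 1, where promoters averaged 2.22, and 88.3% of promoters had at least 1. It occurred 4 times in the CRF3 peak, 3 times in the GNC peak at CRF2 and 2 times in each of the remaining CGA1 peaks. GAGAG, the GAGA motif, occurred 2 times in each of the CRF3 and CRF5 peaks, 1 time in the GNC peak at CRF2, 1 time in the farther CGA1 peak there in replicate 1 and not in the nearer CGA1 peak, and 48.6% to 59.4% of promoters of these lengths had at least 1.

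The other genes of the cytokinin response pathway were searched in the same window. Of 36 such genes, 9 had a GNC peak in both replicates and 4 had a CGA1 peak in both. The share for GNC was thus close to the 22.9% of all protein-coding genes, and that for CGA1, 11.1%, close to the 9.94%. Of CRF7 to CRF12, the remaining cytokinin response factor genes, only CRF7 had peaks in both lists of a line. Its GNC peaks lay on both sides of the TSS, at 184 and −182 bp, with scores of 60.01 and 53.4 in replicate 1 and of 56.54 and 51.98 in replicate 2. None of the 3 receptor genes and none of the 6 phosphotransfer genes had a peak in both lists of a line.

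Among the type-A response regulators, which dampen the cytokinin response, 4 of 10 had a GNC peak in both lists (ARR4, ARR5, ARR6 and ARR16) and 3 of 10 a CGA1 peak in both (ARR8, ARR16 and ARR17), beside 22.9% and 9.94% of all protein-coding genes. ARR16 was, after CRF2, the only other gene of the pathway list with peaks of both factors in all lists. Its GNC peak had scores of 66.98 and 70.99 and lay −1082 bp from the TSS, and its CGA1 peak had scores of 55.71 and 58.61 and lay 1920 bp downstream of the TSS. The peaks of both factors therefore did not touch at ARR16, whereas at CRF2 they did. Among the type-B response regulators, the transcription factors that activate cytokinin response genes, 4 of 11 had a GNC peak in both lists (ARR10, ARR12, ARR19 and ARR20) and 1 of 11, ARR1, had a CGA1 peak in both, beside the same shares of all genes. The ARR1 CGA1 peak had scores of 140.57 and 131.81, and the ARR10 GNC peak at −658 bp had scores of 122.16 and 133.08. In each list, these scores exceeded those of the same factor's peaks at CRF1 to CRF6.

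The genes whose scores were most like those of CRF2 were found by the mean absolute difference, over the 4 lists, in the percentile of the highest score in the window. RHC1A, a RING-H2 finger gene, and DPE2, a disproportionating enzyme gene of starch metabolism, shared the same peaks and differed from CRF2 by 6.47 percentile points. RHS12 differed by 7.15, AT3G02160, annotated as a bromodomain transcription factor, by 8.58, and AT3G55070, annotated with LisH, CRA and RING domains, by 8.7. The likeness concerns only the ranks of scores in 4 lists. At CRF2 the highest CGA1 score was that of the nearer peak in replicate 1 (62.11) and of the farther peak in replicate 2 (75.21).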

How the data were processed

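Leaves of myc-GNC and myc-CGA1 plants were assayed by ChIP-seq with 2 IP and 2 INPUT libraries per line. Reads were trimmed and aligned by the authors to TAIR10 with Bowtie2 2.2.6, reads with several matches were dropped, and MACS 1.4 called the peaks of each IP library against INPUT. The deposited score is the caller's negative log10 of p, multiplied by 10, and was used as given. Reads, summits and fold enrichment are not in the lists, so depth could not be read from them and scores carry no error. Groups followed the sample titles, since GNC lists are named in the descriptions of CGA1 INPUT samples.

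Peaks were placed on the TAIR10.1 annotation with Python 3.11.15, numpy 2.4.6, pandas 2.3.3 and Biopython 1.88, and an overlap of 1 bp with the window sufficed. The 5 nuclear chromosomes were matched by number, and all peaks on them lie within the chromosome lengths of that assembly. They held 5744 of 5745 and 5721 of 5722 GNC peaks and all CGA1 peaks. Peak centres stood for summits. The printed stretches were chosen for their GATA motifs after the motif counts had been seen. Motifs were counted on both strands, and a motif counted once where it reads the same on both. The placing of peaks and the motif counts were checked on simulated data. No result comes from a test. All 6 CRF genes were named, with genes sharing their peaks, pathway genes with a peak in both lists of a line, and the 5 genes most like CRF2. The genes, the pathway list and the alternatives were chosen with earlier results of these data known. Alternatives were other windows, a centre or 50 percent rule, a score of at least 100, peaks shared by replicates, each replicate left out, other gene backgrounds, distance from the peak edge, the other transcript's TSS and motif windows of 250 bp on each side. Expression and ChIP-qPCR measurements were not analysed here.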

Additional observations from a re-analysis of the deposited data

How the results depend on the processing

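The CRF genes with a peak depended on the window and the score minimum. In the promoter window of the study (peak centre up to 1 kb before or 100 bp past the TSS) only CRF2 remained, so that GNC replicate 1, both CGA1 lists and the CGA1 lists together each counted 1 gene. The shares of protein-coding genes with peaks in both lists were 5.35% (GNC) and 2.25% (CGA1) there. In single lists they were 6.33% for GNC replicate 1, and 2.79% and 2.82% for CGA1. From 1 kb upstream to the gene end, CRF5 was lost and each CGA1 count was 1, beside 8.66% (replicate 1), 8.43% (replicate 2) and 6.7% (both lists) of protein-coding genes. At a score of at least 100, all 6 counts were 0, and 2.61% (GNC) and 0.762% (CGA1) of protein-coding genes had such peaks in both lists. With peaks of both replicates only, GNC replicate 1 counted 1 gene, since CRF3 was lost, beside 22.7% of protein-coding genes. Leaving out each replicate gave 1 to 2 genes for GNC, beside 26.9% (replicate 2 alone) and 27.0% (replicate 1 alone) of protein-coding genes. A window of 5 kb upstream, a centre rule and a 50 percent rule gave the counts of the report. In the 5 kb window, 32.6% (GNC) and 14.5% (CGA1) of protein-coding genes had peaks in both lists. Under either rule the shares were 21.5% and 9.26%. From the nearest edge in place of the centre, replicate 1 distances were −1690 and −462 bp for CGA1 and 0 bp for GNC at CRF2, 244 bp at CRF3 and −1042 bp at CRF5. From the other CRF2 transcript they were −2020 and −765 bp for CGA1 and −275 bp for GNC. Of 35 motif counts, 32 stayed within 1.5 times in windows of 250 bp on each side of the centre. Among all annotated genes, 20.3% and 8.69% had peaks in both GNC and both CGA1 lists. A planned search of product names for AP2/ERF genes found only 2, so 146 genes with an AP2/ERF domain were used, a choice made after seeing the data, and gave 19.2% and 9.59%. Percentiles of scores stand in the report and were not set against the scores. No paired analysis was possible because no result comes from a test. Without read counts, a CRF gene lacking a peak is one with no interval past a score of 50, and not one shown to be unbound.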
